A study of Gallus gallus with 17 samples.

Results

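The genes of the proteasome, with the factors that assemble, activate or inhibit it, were examined in adipose tissue of 3 chicken lines. Members were taken by symbol from the platform annotation, as every gene whose symbol starts with PSMA, PSMB, PSMC, PSMD, PSME, PSMF or PSMG followed by a digit. The arrays measure a transcript with probe sets, each a small group of short probes, and for genes with several the one with the highest mean over all arrays was used. This gave 37 genes of the 13008 with a symbol of their own. The rule uses symbols only. All birds were males at 3 weeks of age, and total RNA of adipose tissue was hybridised to 17 Affymetrix chicken arrays, each with the RNA of 1 sample. By their labels 6 arrays are from broiler, a type bred for fast growth, and 5 and 6 from the leaner lines Fayoumi M 5.1 and Leghorn GHs 13. The study set out to find functional pathways that go with leanness. The arrays of a line are labelled as biological replicates, with no diet, litter, batch or pairing named, so a p-value reflects the spread among these samples only. The small number of arrays limits the precision.

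The proteasome degrades proteins that carry a ubiquitin tag. Its core particle is a stack of alpha and beta rings, in which the alpha rings gate the entry and some beta subunits cut the protein chain. A regulatory particle caps the core, where a ring of ATPases unfolds the substrate and non-ATPase subunits bind and remove ubiquitin. In mammals the transcription factor NFE2L1 raises these genes together when proteasome activity falls short, and in mouse brown adipose tissue this response is known to accompany cold adaptation.

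All 37 genes lay above background on all 17 arrays. Background was the 95th percentile of 57 reporter probe sets that match no chicken transcript, 2.30 on the log2 scale. The list holds 7 alpha and 6 beta subunits, 5 ATPases, 8 non-ATPase subunits, 3 activators or inhibitors and 7 assembly factors. PSMC3IP enters by its letters alone, since its protein is a partner of recombinases in meiosis. The immunoproteasome subunits PSMB8, PSMB9 and PSMB10, the activators PSME1 and PSME2, and PSMA8, PSMB6, PSMB11, PSMC4, PSMD4, PSMD8 and PSMD11 were not analysed here. For PSMD4, 4 probe sets carry a second gene's symbol as well and were left out.

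A pair of features of the arrays bears on every value below. On the first principal component, computed without the member probe sets and carrying 53.0% of the variance, 5 arrays stood apart with scores of 0.209 to 0.478, against -0.191 to -0.126 on the other 12. They are labelled broiler 2, 3 and 4 and Leghorn 3 and 6, and no Fayoumi array is among them. ACTB read from its 3′ end exceeded ACTB read from its 5′ end, a sign of RNA quality, by 1.49 to 1.92 on the 5 arrays and by 1.91 to 2.70 on the rest. The array labelled broiler 1 and the array labelled Leghorn 2 each lay with the other line at genes that differ strongly between broiler and Leghorn. On a scale with broiler at 0 and Leghorn at 1, the other broiler arrays were at -0.0204 to 0.129 and the other Leghorn arrays at 0.879 to 0.999. Broiler 1 was at 1.0 and Leghorn 2 at 0.0583. Lines are compared as labelled, and values without these arrays are given for many of the members but not for every gene. A difference given only over all arrays may shrink or turn its sign without them. Fits with the first principal component as a covariate, and fits without all 7 of these arrays, were added after seeing the data, wherever they are given. The 5 arrays, and broiler 1 and Leghorn 2, were themselves picked by their values in these data. An adjusted p from a fit without either set does not account for that choice.

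The adipocyte markers were above background on all arrays in 8 of 8 cases, with FABP4 at 15.72 to 16.18 and ADIPOQ at 11.46 to 13.27. Of 10 measured skeletal muscle markers, all 10 were above background on Leghorn 1, 8 on Fayoumi 2 and 8 on Fayoumi 3. Their summed log2 level was 135.92, 77.27 and 69.45 on those arrays and 32.27 to 47.12 on the other 14. The summed level of 6 endothelial markers was 63.23 to 66.94 on the 5 arrays that stood apart and 64.54 to 69.72 on the others. The summed level of 8 macrophage markers was 73.85 to 88.48, highest on Leghorn 3 and 6. Of 7 T lymphocyte markers 5 were above background on all arrays, among them CD3D at 8.26 to 10.78 and CD3E at 7.75 to 9.97, and LCK was above background on none. The part of these cells in the results below was not tested. In whole tissue, fewer cells of a type and less RNA per cell cannot be told apart.

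None of the 37 genes was called different between lines in the test across all probe sets. That test was limma's moderated test, two-sided, on all 17 arrays with adjustment over 37693 chicken probe sets, and a gene was called at an adjusted p under 0.05. Between Fayoumi and broiler 0 members were called, where 0.714% of all probe sets were called, and 6 members had an unadjusted p under 0.05, where 10.2% of all probe sets did. Between Leghorn and broiler 0 members were called and 1 had an unadjusted p under 0.05, against 0% and 4.88% of all probe sets. Between Fayoumi and Leghorn 0 members were called and 6 had an unadjusted p under 0.05, against 0.626% and 7.4% of all probe sets. The arrays of the lines did not overlap for 1 member between Fayoumi and broiler, for 0 between Leghorn and broiler and for 3 between Fayoumi and Leghorn, against 3.05%, 0.0186% and 2.57% of all probe sets. Both comparisons against broiler share the 6 broiler arrays.

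Against broiler, 26 members had a lower mean in Fayoumi and 11 a higher one, with a median difference of -0.22 on the log2 scale, where the median over all probe sets was 0.00. Without the 5 arrays that stood apart 24 members were higher in Fayoumi and 13 lower, and the median was 0.07. Leghorn against broiler gave 17 members higher, 20 lower and a median of -0.03. There 30 members were higher in Leghorn and 7 lower once the 5 arrays were left out, with a median of 0.08. Without broiler 1 and Leghorn 2 as well 24 were higher and 13 lower, with a median of 0.04. Leaving out only broiler 1 and Leghorn 2 gave 13 higher, 24 lower and a median of -0.08. Fayoumi against Leghorn gave 13 higher, 24 lower and a median of -0.17. Without the 5 arrays these were 14, 23 and -0.05, and without broiler 1 and Leghorn 2 as well 19, 18 and 0.02. The spread of a member between arrays of a line, pooled over the lines, had a median residual SD of 0.37. Over the 19159 probe sets above background on all arrays it was 0.43. For some members the spread differed between lines, with SDs in broiler, Fayoumi and Leghorn of 0.38, 0.08 and 0.48 for PSMB2 and 0.56, 0.11 and 0.47 for PSMF1. For others it was alike, as for PSMC3 at 0.20, 0.19 and 0.21. The test uses the pooled spread.

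**Figure D1:**
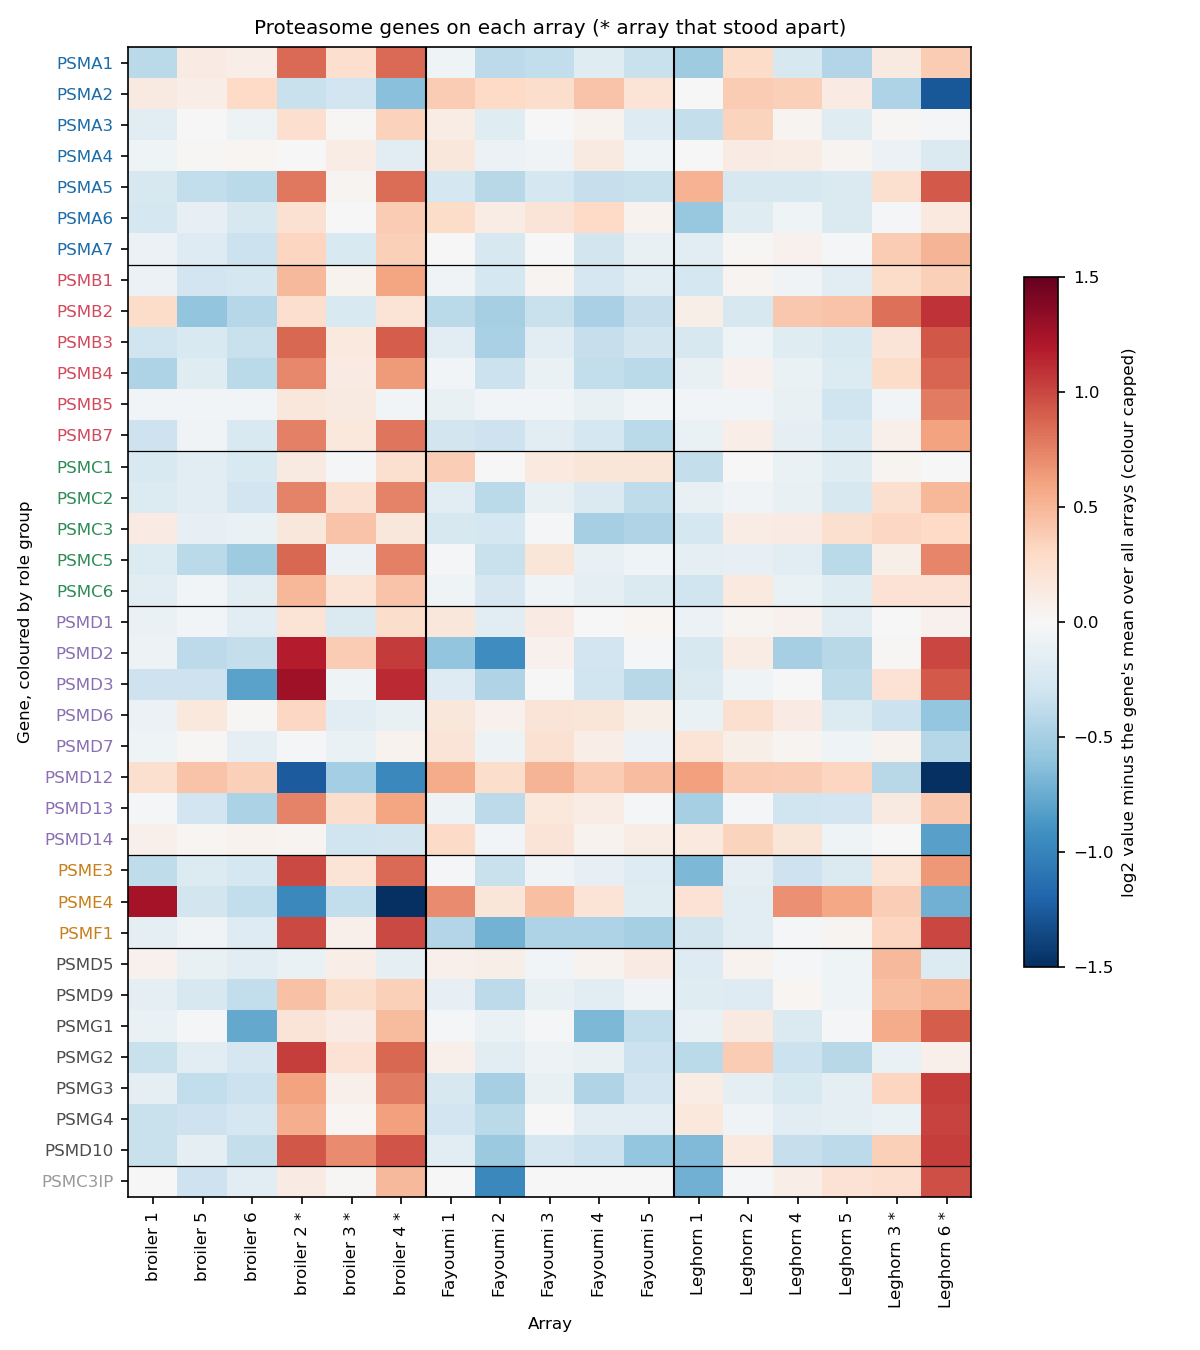
Log2 value of each of the 37 genes minus its mean over all 17 arrays, as colour, with genes in rows by role and arrays in columns by line. Broiler 2 and 4 and Leghorn 6 are red over most rows, with PSMD12, PSMA2 and PSME4 blue on the same arrays, and the Fayoumi columns are pale.

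The alpha ring forms the outer rings of the core. PSMA1 had the smallest adjusted p of this ring against broiler. It lay between 11.75 and 13.01 on the broiler arrays, with a median of 12.35, and at 12.09, 11.77, 11.79, 11.98 and 11.82 on the Fayoumi arrays 1 to 5. Leghorn ranged from 11.63 to 12.55 with a median of 12.11. The lines overlapped, since broiler 1 lay below every Fayoumi array while broiler 2 and 4 lay at 13.01. The Fayoumi mean was 11.89 ± 0.14 (SD, n = 5) against 12.46 ± 0.49 (SD, n = 6), 1.48-fold lower (log2 difference -0.56, SE 0.23, limma adjusted p = 0.402), and it was -0.21 with broiler 2, 3 and 4 and Leghorn 3 and 6 left out. The difference between Leghorn and broiler was -0.36 (SE 0.22, limma adjusted p = 0.852). It was called at -0.42 (limma adjusted p = 0.0137) without broiler 1 and Leghorn 2 and with the first principal component as a covariate, where 5.22% of all probe sets were.

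PSMA6, also of the alpha ring, had the smallest adjusted p between Fayoumi and Leghorn. Its Fayoumi values were 12.93, 12.76, 12.84, 12.95 and 12.69, its Leghorn values ran from 12.07 over a median of 12.53 to 12.79, and its broiler values from 12.38 over 12.58 to 13.03. Leghorn 6 alone of the Leghorn arrays reached into the Fayoumi range. Fayoumi was 1.27-fold higher than Leghorn (log2 difference 0.34, SE 0.13, 95% interval 0.06 to 0.62, limma adjusted p = 0.477). With array weights or with the first principal component as a covariate it was called (limma adjusted p = 0.00612 and 0.00843), where 5.42% and 1.81% of all probe sets were called. Against broiler PSMA6 was called higher in Fayoumi under the same settings (0.36 and 0.41, limma adjusted p = 0.0113 and 0.0402), where 3.5% and 1.16% were. With the covariate but without broiler 1 and Leghorn 2, Fayoumi against broiler was 0.40 and not called (limma adjusted p = 0.0718). In that fit Fayoumi against Leghorn was called at 0.50 (limma adjusted p = 0.0120), where 3.29% of all probe sets were. The second probe set of PSMA6 gave 0.70 against broiler and 0.52 against Leghorn over all arrays, uncalled. On it Fayoumi lay at 5.95 to 6.49, and broiler 1, 5 and 6 at 6.07, 6.76 and 6.54. Leghorn 1, 2, 4 and 5 lay at 5.68, 6.37, 6.50 and 6.25. These calls of PSMA6 thus rest on the chosen probe set. PSMA5 had no overlap between Fayoumi, at 10.72 to 10.88, and Leghorn, at 10.90 to 12.05, yet its difference of -0.49 did not pass (limma adjusted p = 0.802). PSMA3 and PSMA4 varied little, between 11.91 and 12.60 and between 11.62 and 12.01 over all arrays. PSMA7 ranged from 11.51 to 12.34 and PSMA2 from 10.18 to 11.88.

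By the chosen probe sets, all 6 beta ring genes had a lower mean in Fayoumi than in broiler and than in Leghorn, with median differences of -0.32 and -0.35, and none passed the test. Without the 5 arrays that stood apart 4 of 6 were lower than in broiler, with a median of -0.01, and 5 of 6 lower than in Leghorn, with a median of -0.13. The second probe set of PSMB1 went the other way, at 0.86 against broiler and 0.44 against Leghorn, uncalled. That of PSMB7 was lower in Fayoumi in both comparisons. That of PSMB5 was too, but lay near background, at a mean of 2.68 and above background on 16 arrays, so it carries little information. PSMB7, one of the subunits with a cutting site, was at 11.22 to 12.34 in broiler with a median of 11.60. It was at 11.26, 11.22, 11.37, 11.28 and 11.13 in Fayoumi. Broiler 2 and 4 were the high arrays, and broiler 1, 5 and 6 lay at 11.22, 11.49 and 11.31, within or just above the Fayoumi range. The mean was 1.39-fold lower in Fayoumi (log2 difference -0.47, SE 0.21, 95% interval -0.91 to -0.03, limma adjusted p = 0.457), and the difference was -0.09 without the 5 arrays.

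PSMB2 encodes a structural beta subunit, and its pattern over arrays differed from that of its ring. The 6 broiler arrays were at 10.51, 10.49, 9.998, 10.43, 9.64 and 9.80, in replicate order. Fayoumi was at 9.83, 9.73, 9.90, 9.74 and 9.88. Leghorn was at 10.32, 9.996, 11.06, 10.63, 10.66 and 11.32, so every Leghorn array lay above every Fayoumi array. PSMA5, PSMB2 and PSMF1 were the members for which those lines did not overlap. Fayoumi was 1.80-fold lower than Leghorn (log2 difference -0.85, SE 0.22, 95% interval -1.32 to -0.38, limma adjusted p = 0.124). Leghorn was 1.43-fold higher than broiler, at 10.66 ± 0.48 against 10.14 ± 0.38 (SD, n = 6 each; log2 difference 0.52, SE 0.21, limma adjusted p = 0.852). Fayoumi and broiler differed by -0.33 (SE 0.22, limma adjusted p = 0.634). Broiler 5 and 6, which neither stood apart nor lay with the other line, were below the Fayoumi mean of 9.82.

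The arrays labelled broiler 1 and Leghorn 2 changed the call of PSMB2. Broiler 1 was the highest broiler array and Leghorn 2 the lowest Leghorn array. Without both, Fayoumi against Leghorn was called at -0.98 (SE 0.20, limma adjusted p = 0.0269), where 1.44% of all probe sets were called, and Leghorn against broiler reached 0.73 (SE 0.20, limma adjusted p = 0.109). Leaving out Leghorn 2 alone gave the same call against Fayoumi (limma adjusted p = 0.0316), with 1.14% of all probe sets called. Without the 5 arrays that stood apart as well, Leghorn against broiler was 0.82 (SE 0.11, limma adjusted p = 0.0127), with 1.97% of all probe sets called, and Fayoumi against Leghorn -0.72 (limma adjusted p = 0.00780), with 2.53% called. With the first principal component as a covariate and all arrays but broiler 1 and Leghorn 2, these were 0.88 (limma adjusted p = 2.48e-05) and -0.71 (limma adjusted p = 0.000191), with 5.22% and 3.29% of all probe sets called. Array weights also called Fayoumi against Leghorn (-0.77, limma adjusted p = 0.00209), with 5.42% of all probe sets called. Among the arrays that stood apart, Leghorn was at 11.06 and 11.32 and broiler at 9.998 to 10.49. Among the others, still without broiler 1 and Leghorn 2, Leghorn was at 10.32 to 10.66 and broiler at 9.64 and 9.80. PSMA7, PSMB2 and PSMD9 were higher in Leghorn in both sets of arrays and PSMG2 was lower in both, where 4.57% and 6.33% of the probe sets above background were, a description made after the values were seen.

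The remaining beta genes followed the high arrays of broiler and Leghorn. PSMB3 ran from 10.07 to 10.40 in Fayoumi and up to 11.47 in broiler and 11.49 in Leghorn. PSMB4 ran from 11.78 to 12.14 in Fayoumi and up to 12.90 and 13.05. PSMB1 spanned 11.56 to 12.44 over all arrays. PSMB5, another subunit with a cutting site, gave 1 shared value of 6.89 on 9 of the 17 arrays within 0.001, from a probe set whose name marks probes that match other sequences too, so its differences carry little information.

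**Figure D2:**
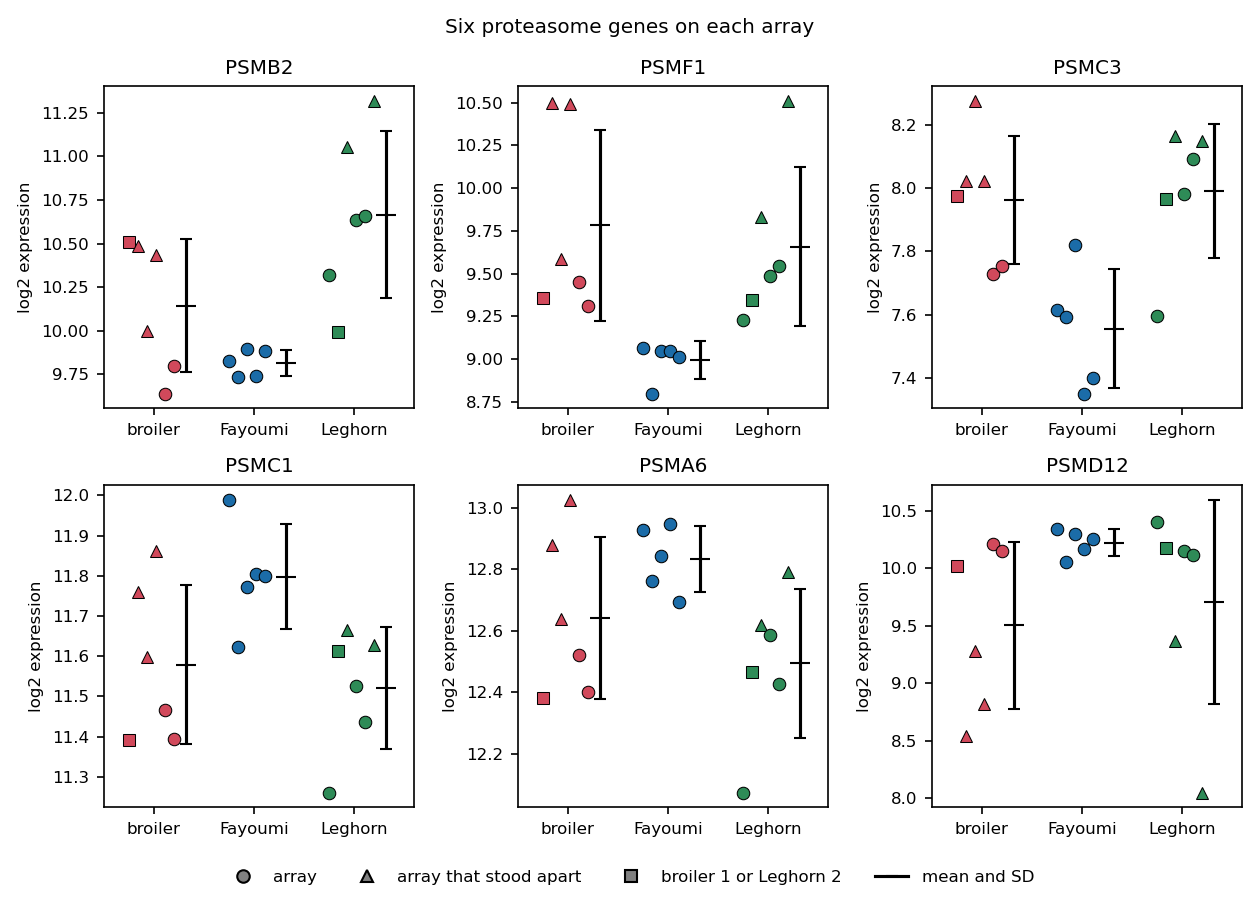
Log2 expression of PSMB2, PSMF1, PSMC3, PSMC1, PSMA6 and PSMD12 on each array by line, with triangles for the 5 arrays that stood apart, squares for broiler 1 and Leghorn 2, and bars for mean and SD. Fayoumi lies below every other array for PSMF1, and triangles lie below all other arrays for PSMD12.

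In the ATPase ring, which unfolds the substrate, PSMC3 had the smallest adjusted p of all members against broiler. Its values were 7.73 to 8.28 in broiler. Fayoumi was at 7.62, 7.59, 7.82, 7.35 and 7.40, and Leghorn at 7.59 to 8.16 with a median of 8.04. Fayoumi 3 reached into the broiler range, and Leghorn 1 was the only Leghorn array within the Fayoumi range. Fayoumi was 1.33-fold lower than broiler (log2 difference -0.41, SE 0.12, 95% interval -0.67 to -0.15, limma adjusted p = 0.187), and the difference was -0.26 without the 5 arrays that stood apart. It was 1.35-fold lower than Leghorn (log2 difference -0.44, SE 0.12, limma adjusted p = 0.162). Without Leghorn 1, the array with the highest muscle markers, Fayoumi against Leghorn was called (-0.51, limma adjusted p = 0.0468), with 0.679% of all probe sets called. It was called with array weights too (-0.45, limma adjusted p = 0.0109), with 5.42% of all probe sets called. The second probe set of PSMC3 gave -0.36 against broiler and -0.09 against Leghorn, uncalled in both.

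PSMC1, another ATPase, had the opposite sign. It was at 11.99, 11.62, 11.77, 11.80 and 11.80 in Fayoumi, 11.39 to 11.86 in broiler and 11.26 to 11.66 in Leghorn. Fayoumi was higher by 0.22 than broiler and by 0.28 than Leghorn, uncalled (limma adjusted p = 0.470 and 0.380). With the first principal component as a covariate both were called, at 0.36 and 0.37 (limma adjusted p = 0.0341 and 0.0167), where 1.16% and 1.81% of all probe sets were, and with that covariate and without broiler 1 and Leghorn 2 as well (limma adjusted p = 0.0342 and 0.00876), where 2.5% and 3.29% were. Array weights called both too (limma adjusted p = 0.0117 and 0.0131), where 3.5% and 5.42% of all probe sets were. PSMC6 was the ATPase with the smallest adjusted p between Leghorn and broiler, at 11.64 to 12.15 and 11.76 to 12.43 with medians of 11.95 and 12.01 (log2 difference -0.13, SE 0.13, limma adjusted p = 0.876). Its Fayoumi values were 11.86, 11.68, 11.87, 11.79 and 11.71. PSMC2 and PSMC5 spanned 10.74 to 11.90 and 10.19 to 11.59, with broiler 2 and 4 at the top.

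Of the non-ATPase subunits 5 of 8 had a higher mean in Fayoumi than in broiler and 3 a lower one, with a median of 0.08. Leaving out the 5 arrays made 7 higher and 1 lower, with a median of 0.12. PSMD2, a scaffold that docks ubiquitin receptors and shuttles, had the smallest adjusted p of this group against broiler. It ranged from 7.69 to 9.27 in broiler with a median of 8.24, and was at 7.49, 7.15, 8.15, 7.79 and 8.06 in Fayoumi. Broiler 2 and 4 lay at 9.27 and 9.13 and broiler 1, 5 and 6 within the Fayoumi range, so the lines overlapped. Fayoumi was 1.57-fold lower (log2 difference -0.65, SE 0.34, 95% interval -1.38 to 0.08, limma adjusted p = 0.533), and the difference was -0.08 without the 5 arrays. Its second probe set gave -0.86 (limma adjusted p = 0.301).

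PSMD6, a non-ATPase subunit of the lid, was close on the Fayoumi arrays, at 10.91, 10.80, 10.94, 10.92 and 10.82. Leghorn spanned 10.16 to 10.98 with a median of 10.59 and broiler 10.57 to 11.05 with a median of 10.70. The difference was 0.28 between Fayoumi and Leghorn (SE 0.13, limma adjusted p = 0.646) and -0.16 between Leghorn and broiler (SE 0.12, limma adjusted p = 0.852). These were 0.12 and -0.01 without the 5 arrays. PSMD1, the other large scaffold, varied little, from 10.25 to 10.73 over all arrays. PSMD14, the enzyme that removes ubiquitin chains at the lid, ranged from 9.25 to 10.40. PSMD7, its partner in the lid, ranged from 10.92 to 11.58. PSMD3 ran from 7.34 to 9.41 and PSMD13 from 6.69 to 7.93.

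Among the activators and the inhibitor, PSMF1 stood out by its Fayoumi values. It encodes PI31, known in mammals and flies as a proteasome-binding protein that inhibits the core in vitro. Fayoumi was at 9.06, 8.80, 9.05, 9.05 and 9.01, below all 12 arrays of the other lines, of which the lowest was at 9.23. It was the only member of the 37 with such a gap, which 0.608% of all probe sets showed in that direction, and 0 members lay above all 12 arrays, where 0.727% of all probe sets did. Broiler lay at 9.31 to 10.50 with a median of 9.52 and Leghorn at 9.23 to 10.51, also with a median of 9.52. Fayoumi was 1.73-fold lower than broiler, at 8.99 ± 0.11 (SD, n = 5) against 9.78 ± 0.56 (SD, n = 6; log2 difference -0.79, SE 0.26, 95% interval -1.35 to -0.23, limma adjusted p = 0.272). It was 1.59-fold lower than Leghorn (log2 difference -0.67, SE 0.26, limma adjusted p = 0.493).

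The differences of PSMF1 held their sign when the 5 arrays that stood apart were left out. Fayoumi against Leghorn was called at -0.41 (SE 0.08, limma adjusted p = 0.0420), where 1.05% of all probe sets were. Fayoumi against broiler was -0.38 (SE 0.08, limma adjusted p = 0.109). Array weights called PSMF1 lower in Fayoumi than in broiler and than in Leghorn (limma adjusted p = 0.0247 and 0.00500), where 3.5% and 5.42% of all probe sets were called.

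PSME4 encodes PA200, an activator that in mammals is tied to histone degradation. It had the widest range of the members in broiler, from 9.20 to 12.06 with a median of 10.44, the highest value being on broiler 1. Fayoumi was at 11.52, 10.99, 11.26, 11.01 and 10.62, and Leghorn at 10.09 to 11.50 with a median of 11.10. The difference between Leghorn and broiler was 0.55 (SE 0.38, 95% interval -0.27 to 1.37, limma adjusted p = 0.852). It was 0.88 without broiler 1, 0.31 without broiler 4 and 0.13 without the 5 arrays that stood apart, uncalled in each. The last of these fits keeps broiler 1 and Leghorn 2. With those aside as well, Leghorn 1, 4 and 5 lay at 11.03, 11.50 and 11.39, above broiler 5 and 6 at 10.53 and 10.44. Among the 5 arrays the lines overlapped. Over all alternatives the difference of PSME4 ran from 0.13 to 0.945, uncalled in each. Its 2 other probe sets also gave higher means in Leghorn, by 0.37 and 0.46, uncalled. PSME3, the activator of the nuclear proteasome, lay at 9.95 to 11.61 and differed by -0.34 between Fayoumi and broiler (limma adjusted p = 0.672). Broiler 1, 5 and 6 lay at 10.24, 10.43 and 10.36, each below the Fayoumi mean of 10.48.

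Of the assembly factors 6 of 7 had a lower mean in Fayoumi than in broiler, with a median of -0.25 over the group and no call. In contrast 5 of 7 had a higher mean in Fayoumi when the 5 arrays were left out, with a median of 0.08. PSMD10, known as gankyrin and a chaperone of the ATPase ring, was at 8.41 to 9.72 in broiler with a median of 9.06. Fayoumi was at 8.60, 8.21, 8.51, 8.45 and 8.19. The high broiler arrays were the 3 that stood apart, and broiler 1 and 6 lay within the Fayoumi range. The mean was 1.59-fold lower in Fayoumi (log2 difference -0.67, SE 0.32, 95% interval -1.36 to 0.02, limma adjusted p = 0.504), and the difference was -0.102 without the 5 arrays.

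PSMG1 to PSMG4 encode the chaperones that build the alpha ring. PSMG2 ranged from 7.64 to 9.01 in broiler, and from 7.56 to 8.36 in Leghorn with a median of 7.77 (log2 difference -0.36, SE 0.23, limma adjusted p = 0.852). Its Fayoumi values were 8.06, 7.81, 7.90, 7.87 and 7.65. PSMG3 was at 8.61, 8.36, 8.74, 8.41 and 8.57 in Fayoumi and 8.63 to 9.89 in Leghorn with a median of 8.84, overlapping at the lower end (log2 difference -0.47, SE 0.25, limma adjusted p = 0.772), and the difference was -0.22 without the 5 arrays. PSMG1 ran from 7.91 to 9.59 and PSMG4 from 8.52 to 9.95. PSMD5 and PSMD9, chaperones of the regulatory particle, ran from 9.14 to 9.84 and from 9.27 to 10.15. PSMC3IP, which is no proteasome gene, lay lower on the arrays, at 4.53 to 6.46, with differences of -0.22, 0.10 and -0.32 in the 3 comparisons (limma adjusted p = 0.801, 1.0 and 0.802).

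**Figure D3:**
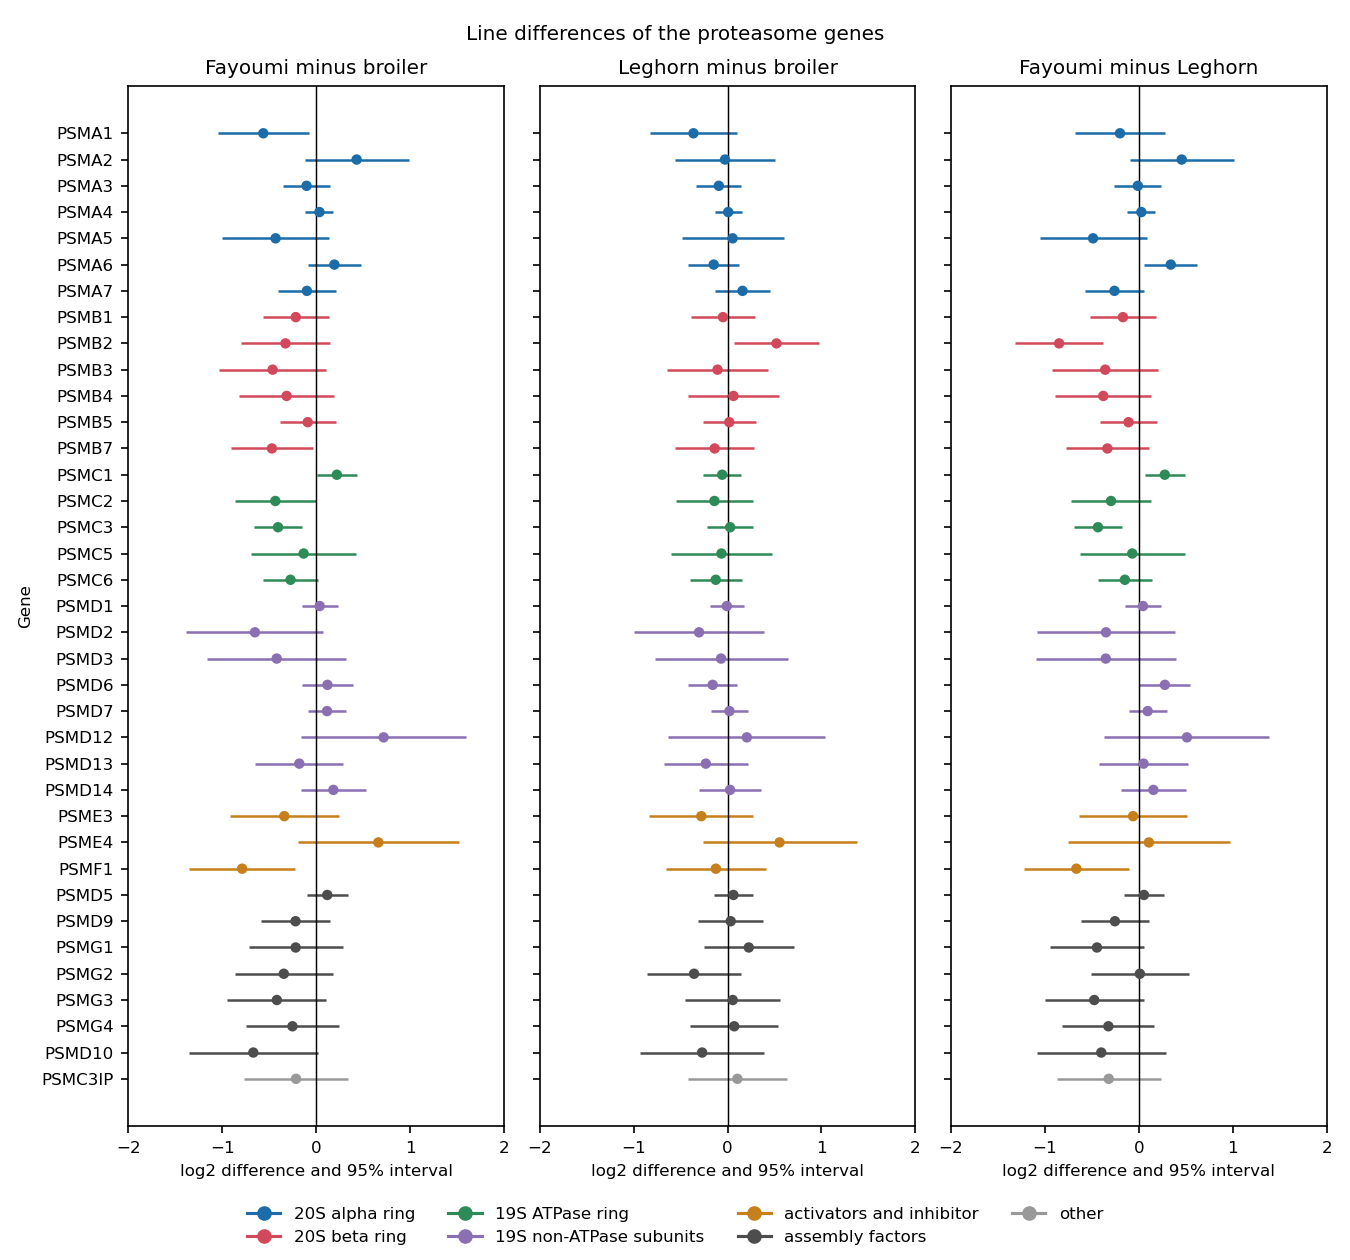
Log2 difference with its 95% interval for each of the 37 genes in the 3 comparisons, coloured by role. Intervals that leave out 0, such as those of PSMC3 and PSMF1 in Fayoumi against broiler and PSMB2 in Fayoumi against Leghorn, are not adjusted for the number of probe sets, and no gene was called after adjustment.

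Many members also differed between the 5 arrays that stood apart and the other 12, across the lines. Since these arrays were picked by their values, the following is a description with no test. The median on the 5 arrays was higher for 29 of 37 members and lower for 8, that is for 78.4% and 21.6%. Of the 19159 probe sets above background 48.3% were higher and 39.0% lower, and the rest had equal medians. Without overlap between the 2 sets of arrays, 9 members were higher, where 10.9% of those probe sets were, and 2 were lower, where 13% were. Those higher were PSMB1, PSMB3, PSMB4, PSMC2, PSMC6, PSME3, PSMF1, PSMD9 and PSMD10.

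The same split was read within broiler and within Leghorn, the lines that hold these arrays. Broiler 2, 3 and 4 lay above the other broiler arrays for 25 members and below them for 2, where 26.7% and 22.5% of the probe sets above background did. Leghorn 3 and 6 lay above the other Leghorn arrays for 20 members and below them for 4, where 26.6% and 21.1% did. Measured from each member's mean over all arrays, broiler 2 and 4 and Leghorn 6 moved most, with a median member deviation of 0.44, 0.47 and 0.49. Broiler 3 and Leghorn 3 lay nearer, at 0.07 and 0.20. On the Fayoumi arrays it was -0.26 to -0.02.

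By role the higher side held all 6 beta subunits, all 5 ATPases, 6 of 7 assembly factors, 5 of 7 alpha subunits, 2 of 3 activators or inhibitors and 4 of 8 non-ATPase subunits. The largest differences of medians were 1.33 for PSMD2, 1.27 for PSMD10, 1.22 for PSMF1, 1.22 for PSMD3 and 1.10 for PSMB3. PSMB3 was at 10.71 to 11.49 on the 5 arrays and 10.07 to 10.50 on the others.

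Some subunits of the same particle lay on the lower side. PSMD12, a lid subunit, was at 8.05 to 9.37 on the 5 arrays and 10.02 to 10.40 on the other 12, a difference of medians of -1.35 with no overlap. PSMA2 was at 10.18 to 11.17 against 11.46 to 11.88, also with no overlap. PSME4 was lower by 0.93 in its median, with overlap, and PSMD14 by 0.38. PSMD6, PSMA4, PSMD5 and PSMD7 had differences of medians between -0.27 and -0.04. The alpha subunits PSMA5 and PSMA2, of the same ring, differed by 1.05 and by -0.74 in their medians.

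**Figure D4:**
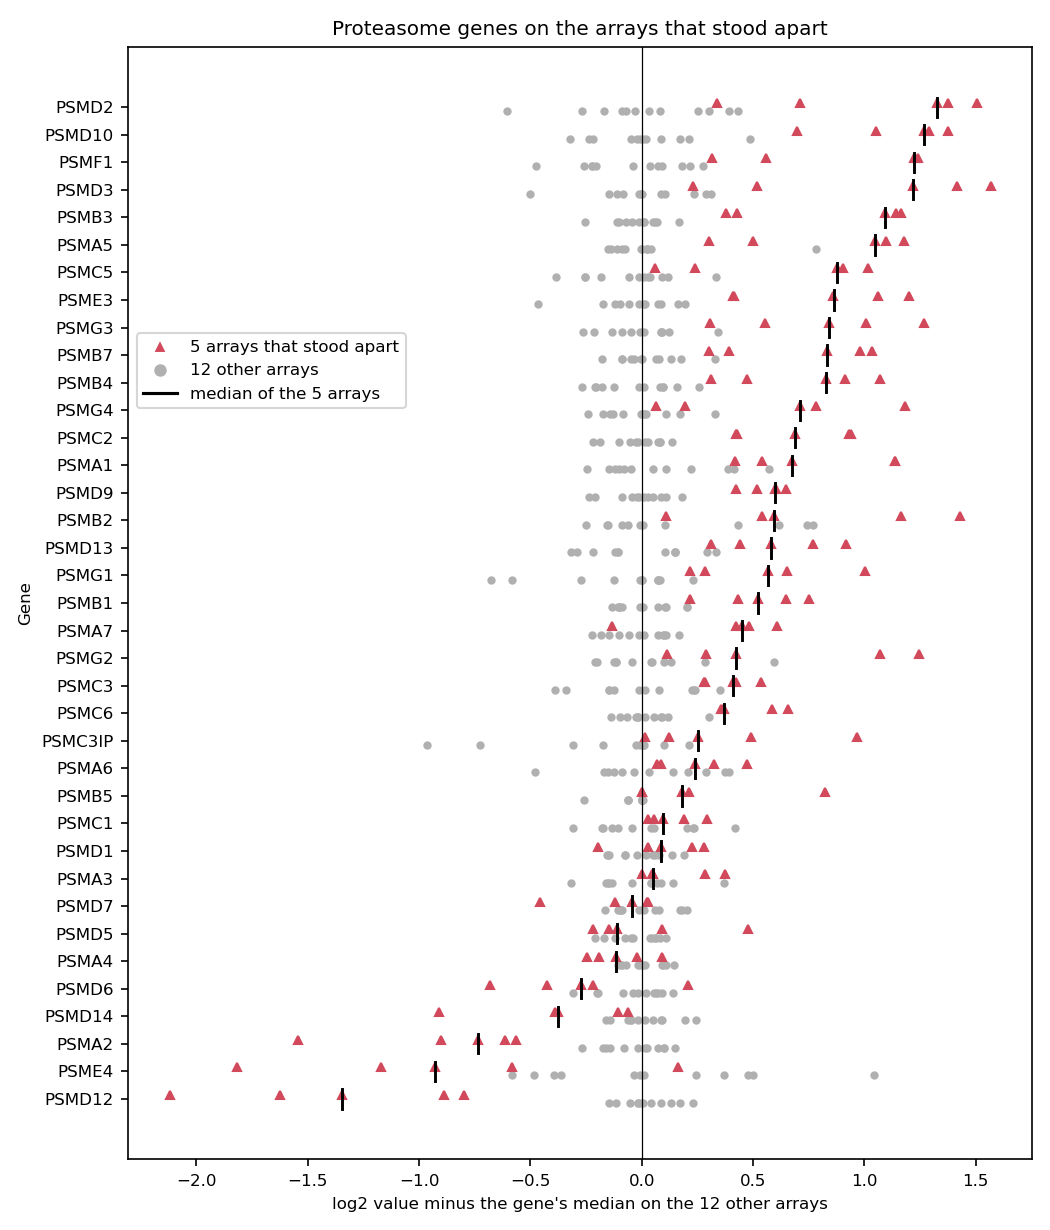
Log2 value of each gene minus its median on the 12 other arrays, with red triangles for the 5 arrays that stood apart, grey points for the 12 others and black bars for the median of the 5. Most triangles lie to the right of 0, and those of PSMD12 and PSMA2 lie to the left of every grey point.

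Other probe sets of the same genes did not always go with the chosen one. Of 21 further probe sets on 16 members, 13 on 12 genes were above background on all arrays, and 9 of these 13 had the same sign as the chosen probe set on the 5 arrays. PSMB7 gave 0.84 and 0.83 and PSMD2 gave 1.18 and 1.33, second probe set first. PSME4 gave -0.97 and -1.32 beside -0.93. Against this, the second probe set of PSMA6 gave -2.01 beside 0.24, that of PSMB1 gave -1.46 beside 0.52, and one of PSMG4 gave -1.56 beside 0.71. Between lines 10, 8 and 9 of the 13 had the sign of the chosen probe set in Fayoumi against broiler, Leghorn against broiler and Fayoumi against Leghorn. That probe set of PSMG4 gave 1.94 between Fayoumi and Leghorn (limma adjusted p = 0.104) beside -0.32.

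Around the proteasome, 53 of 63 listed genes were measured, and 0 were called in any comparison. The lists held other proteasome genes, ubiquitin transfer, ubiquitin shuttling, proteasome transcription, muscle ubiquitin ligases and autophagy. Means were higher for 30 and lower for 23 in Fayoumi against broiler, for 33 and 20 in Leghorn against broiler, and for 27 and 26 in Fayoumi against Leghorn. Of 11 other proteasome genes, ECPAS, a proteasome-binding scaffold, was 0.34 higher in Fayoumi than in broiler (limma adjusted p = 0.439), and POMP, which matures the core, 0.12 lower in its log2 mean in Fayoumi than in Leghorn, at 11.93 ± 0.08 against 12.05 ± 0.14 (limma adjusted p = 0.778). FBXO7, which binds PI31, was at 11.04 ± 0.36 in Leghorn and 11.43 ± 0.22 in broiler (limma adjusted p = 0.852).

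Among 9 genes of proteasome transcription, NFE2L1 was at 12.78 ± 0.34 in Leghorn and 13.20 ± 0.31 in broiler, a difference of -0.42 (limma adjusted p = 0.852). In Fayoumi it was at 12.68 ± 0.15, and the difference from broiler was -0.52 (limma adjusted p = 0.270). NFYC, a subunit of the CCAAT-binding factor NF-Y, differed by -0.80 between Fayoumi and broiler (SE 0.26, limma adjusted p = 0.253). It was at 11.56, 11.09 and 11.50 on broiler 2, 3 and 4, at 9.98, 10.67 and 10.55 on broiler 1, 5 and 6, and at 9.90 to 10.31 in Fayoumi. NFE2L2, the oxidative stress relative of NFE2L1, differed by 0.51 between Fayoumi and Leghorn (limma adjusted p = 0.802). Of 8 genes of ubiquitin and its activation, the conjugating enzyme UBE2D3 differed by 0.35 between Fayoumi and broiler (limma adjusted p = 0.524). It was at 11.02, 11.49 and 11.06 on broiler 2, 3 and 4, at 11.74, 11.80 and 11.82 on broiler 1, 5 and 6, and at 11.74 to 11.96 in Fayoumi. UBE2N, which builds signalling chains, differed by 0.14 between Leghorn and broiler and by -0.12 between Fayoumi and Leghorn (limma adjusted p = 0.852 and 0.758).

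Of 9 shuttle genes, FAF1, an adaptor of the unfoldase VCP, differed by 0.81 between Fayoumi and broiler and by 0.86 between Fayoumi and Leghorn (limma adjusted p = 0.562 and 0.793), and DDI2, a protease that activates NFE2L1, by 0.05 between Leghorn and broiler near background (limma adjusted p = 0.852). Of 5 muscle ligases, MUL1 was near background, at 2.33 ± 0.12 in broiler (limma adjusted p = 0.598 and 0.852 for Fayoumi and Leghorn against it), and FBXO40 was at 3.24 ± 2.08 in Leghorn and 2.38 ± 0.28 in Fayoumi (limma adjusted p = 0.802). Its Leghorn mean was carried by Leghorn 1, the array with the highest muscle markers, at 7.45, while the Leghorn median was 2.26 and FBXO40 was above background on 4 of the 17 arrays. Of 11 autophagy genes, MAP1LC3B, which coats the autophagosome, differed by -0.50 between Fayoumi and broiler (limma adjusted p = 0.401). It was at 13.29, 12.83 and 13.39 on broiler 2, 3 and 4, at 12.08, 12.58 and 12.53 on broiler 1, 5 and 6, and at 12.18 to 12.38 in Fayoumi. ATG7, which activates MAP1LC3B, differed by -0.57 between Leghorn and broiler (limma adjusted p = 0.852), and the kinase ULK1 by 0.40 between Fayoumi and Leghorn (limma adjusted p = 0.490).

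On the 5 arrays that stood apart, these genes lay on both sides. Without overlap 4 of 53 were higher (PAAF1, UBQLN4, FAF2 and ATG12), where 10.9% of the probe sets above background were, and 14 were lower, where 13% were. The shuttles RAD23B and UBQLN1, which bring tagged proteins to the proteasome, were 1.78 and 1.63 lower in their medians on the log2 scale. UCHL5, a deubiquitinase of the regulatory particle, was at 6.63 to 8.13 against 8.42 to 9.21, and the proteasome-bound ligase UBE3C at 7.71 to 8.66 against 9.07 to 9.49. The autophagy gene BECN1 was at 7.53 to 9.04 against 10.61 to 11.07.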

How the data were processed

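Values are the log2 signals deposited by the authors, already normalized, with 1 value for each probe set on each array. Per the submitters' processing notes R 2.13.2 was used, with RMA and GCRMA both listed and no role given for either. The log2 scale was read from the values, which run from 2.26 to 16.2 with array medians of 2.48 to 2.59, and 37.1% of the values lie at the floor. Of 38535 probe sets, 37693 chicken ones were tested, 27166 of them with 1 symbol, of which 26851 were found in RefSeq by gene number. Between 55.4% and 58.4% lay above background on an array.

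Lines were compared with limma 3.58.1 in R 4.3.3 (lmFit, contrasts.fit and eBayes with defaults, line as the factor, all 17 arrays), with Benjamini-Hochberg adjustment over all chicken probe sets. The script was tested on simulated data. Members and lists were chosen with earlier results of these data known. Full values are given for members called and, per comparison, for the member of each role with the smallest adjusted p, and 1 gene per pathway list was named likewise. Other genes were described after their values were seen. Same-numbered arrays were checked for pairing: over 16 pairs the correlation of deviations was -0.795 to 0.600, and 4 pairs were over 0.1. Between broiler and Leghorn it was positive where both or neither array stood apart, and negative where they differed in this. The check therefore cannot decide on pairing. As the labels name none, numbers were not taken to pair arrays. No array duplicated another (correlations 0.920 to 0.997). Alternatives covered the variance model, array weights, a filter on low values, scaling, the probe set rule, single arrays, the 5 arrays that stood apart and the arrays broiler 1 and Leghorn 2. Probes named _s_at (14 members) or _x_at (1 member) can bind related transcripts.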

Additional observations from a re-analysis of the deposited data

Results flagged for a closer look

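Within a line, 45 groups of array values of the named genes were screened for a single array far from the rest, and 3 were found, where chance gives about 1 in 20 groups. PSMC3 on Leghorn 1 was at 7.59, against 7.96 to 8.16 on the other Leghorn arrays. Leghorn 1 is also the array with the highest skeletal muscle markers, whose part was not tested. PSMF1 on Fayoumi 2 was at 8.80, against 9.01 to 9.06 on the other Fayoumi arrays. PSMC3IP on Fayoumi 2 was at 4.53, against 5.48 to 5.50. Fayoumi 4 and 5 gave 1 shared value there, also found on broiler 1, so the narrow range of the others carries less information. Fayoumi 2 also carried muscle markers, with 8 of 10 above background, and 3 of 37 members above their own median on that array. Fayoumi 3, also with 8 of 10, had 22 members above their own median. Leghorn 1, with 10 of 10, had 11, and broiler 6, with 4 of 10, had 3. The part of muscle in this was not tested.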

How the results depend on the processing

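Each result was recomputed under 30 alternatives, and 844 values kept their direction and side of the threshold or, for counts and medians, stayed near the value given. The members called in Fayoumi against broiler, 0 as reported, became 3 with array weights, 2 with the first principal component as a covariate and 1 with that covariate and without broiler 1 and Leghorn 2. Of all probe sets 3.5%, 1.16% and 2.5% were called in these settings, in that order, against 0.714% as reported. The median turned to 0.0252 with array weights, 0.0698 without the 5 arrays that stood apart, 0.0737 without those and broiler 1 and Leghorn 2, 0.0421 with the covariate and 0.11 with the covariate and without the 2 arrays. The other pathway genes called became 3 with array weights, 1 without broiler 1 and Leghorn 2, 1 with the covariate and 2 with the covariate and without the 2 arrays. Without broiler 1 and Leghorn 2 alone, 1.82% of all probe sets were called. PSMD2 reversed to 0.0213 without all 7 arrays and 0.0452 with the covariate and without the 2 arrays. PSMC3IP reversed to 0.0508, 0.114 and 0.225 without the 7 arrays, with the covariate, and with the covariate and without the 2 arrays.

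In Leghorn against broiler, members called became 1 without the 7 arrays (PSMB2) and 2 with the covariate and without the 2 arrays (PSMA1 and PSMB2). There 1.97% and 5.22% of all probe sets were called. Other pathway genes called became 2 without the 2 arrays, where 1.75% of all probe sets were, 1 without the 7 and 11 with the covariate and without the 2. Without the 5 arrays PSMC6 reversed to 0.0193 and PSMG2 to 0.0597, and PSMC3IP ran from -0.0631 without Leghorn 6 to 0.276 without Leghorn 1. In Fayoumi against Leghorn, members called became 5 with array weights, 1 without the 2 arrays, 1 without the 5, 1 without the 7, 2 with the covariate and 3 with the covariate and without the 2. Of all probe sets 5.42%, 1.44%, 1.05%, 2.53%, 1.81% and 3.29% were called, in the same order. The median became 0.0627 in the last of these settings. Other pathway genes called became 2 with array weights and 1 each with the median over all probe sets of a gene, without the 7 arrays, with the covariate, and with the covariate and without the 2 arrays. With the median over all probe sets of a gene, 0.999% of 13008 genes were called. The cause of these moves was not tested.

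Leaving out 1 array in turn gave 0 to 0 members called and a median of -0.31 to -0.12 in Fayoumi against broiler, a median of -0.10 to 0.04 in Leghorn against broiler, and 0 to 1 members called with a median of -0.23 to -0.11 in Fayoumi against Leghorn. The single calls were PSMC3 without Leghorn 1 and PSMB2 without Leghorn 2, where 0.679% and 1.14% of all probe sets were called. Other pathway genes called were 0 to 1 in Fayoumi against broiler, with 1 without broiler 1, where 1.63% of all probe sets were. With the replicate number as a block 0 members were called in each comparison and the medians were -0.22, -0.03 and -0.17. The 16 values of single named genes that became called were of PSMA1, PSMA6, PSMB2, PSMC3 and PSMF1. Signal near the floor compresses differences, which touches PSMC3IP more than the other members.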
